A study of Homo sapiens with 6 samples.

Results

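SNU-387 is an established cell line from a human hepatocellular carcinoma, in which 7 aldo-keto reductase genes were followed with and without a hairpin against YES1. The genes are AKR1A1, AKR1B1, AKR1B10, AKR1C1, AKR1C2, AKR1C3 and AKR7A2. They are 7 listed members of the family among the 58219 genes in the count files, chosen with earlier results of these data known. The list is not the whole family, and 10 other family genes in the files are described apart. All 7 members had enough reads to test. RNA was measured by stranded poly(A) sequencing in 3 samples with a stable hairpin that has no target (shNT) and 3 with a stable hairpin to YES1 (shYES1). Cells trim such a short hairpin to a guide that lowers the matching messenger RNA, and YES1 is a tyrosine kinase of the SRC family. The design asks how the transcriptome of these liver cancer cells differs when YES1 is lowered. Every sample carries a stable hairpin, and no drug is named in the labels. How many hairpins were used, and whether each line is a pool or a clone, is not stated. Nor is it stated that replicates came from separate cultures, so p-values reflect only the spread among these libraries, which may be technical.

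Aldo-keto reductases use NADPH to reduce aldehydes and ketones to alcohols. Substrates include sugars, steroids, prostaglandins, retinal and the reactive aldehydes left by lipid peroxidation. AKR1A1 is aldehyde reductase, a broad enzyme found in most tissues. AKR1B1 is aldose reductase, which turns glucose into sorbitol in the polyol pathway. AKR1B10 reduces retinal and other aldehydes and is known for its high level in many hepatocellular carcinomas. The AKR1C enzymes are hydroxysteroid dehydrogenases: AKR1C1 inactivates progesterone, AKR1C2 inactivates dihydrotestosterone, and AKR1C3 makes testosterone from androstenedione and also prostaglandin F from its precursors. AKR7A2 reduces succinic semialdehyde and the dialdehyde of aflatoxin. AKR1B10 and the AKR1C genes are textbook targets of NRF2, the transcription factor of the oxidative stress response.

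Gene-assigned reads ran from 11290889 to 18944148 per library. YES1 itself had 177.7, 180.9 and 180 CPM (the normalised read count, scaled to a common library total) in the shNT samples, against 42.9, 43.3 and 46.0 CPM in the shYES1 samples, in the order of their numbers. Its level was 4.06-fold lower in shYES1, with no overlap between groups (log2 fold change -2.02, edgeR adjusted p = 7.93e-40). Of 10 hepatocyte markers, 8 were too low to test and 4 had no read in any library. Albumin (ALB) averaged 0.0211 CPM in shNT. Most defining markers of hepatocytes were therefore absent or near 0 in this liver line. The summed level of the hepatocyte markers was 20.2 to 23.7 CPM in shNT and 19.1 to 21.7 CPM in shYES1. Other identity markers moved with the groups. The 7 liver tumour and epithelial markers summed to 764.8 to 774 CPM in shNT and 1070 to 1091 CPM in shYES1, where the keratin genes KRT8 (log2 fold change 0.55) and KRT18 (0.38) rose, EPCAM was not called and 4 were too low to test. The 5 mesenchymal markers summed to 27100 to 29790 CPM in shNT and 18320 to 18450 CPM in shYES1. Of these VIM (-0.94), FN1 (-0.72) and ZEB1 (-0.33) fell, and CDH2 (0.38) and COL1A1 (0.17) rose. Nearly all of the sum was FN1, with a mean of 26240 CPM in shNT and 15910 CPM in shYES1. COL1A1, the next most abundant, went from 1481 to 1670 CPM. The part of these shifts in the results below was not tested.

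The AKR1C genes are close copies, which matters because reads with several equally good places in the genome were left out of the gene counts. A stretch of the coding sequence of each shows how little separates them. It is the window of 30 coding bases in which AKR1C1 and AKR1C2 differ most, bases 112 to 141 counted from the first base of the start codon, in exon 2 of each gene (GRCh38, chr10:4965941-4965970 on the plus strand, chr10:5001625-5001654 on the minus strand and chr10:5096437-5096466 on the plus strand). Capitals mark the 8 positions at which the 3 genes are not all the same.
AKR1C1: ACCaaattGgcaatTgaagcTggCttccGc
AKR1C2: GTCaaattGgcaatAgaagcCggGttccAc
AKR1C3: ACAaaattAgcaatAgaagcTggGttccGc
Over their 972 coding bases AKR1C1 and AKR1C2 differ at 19 positions (98% identity), and their last 189 coding bases are the same. AKR1C3 differs from AKR1C1 at 83 positions (91.5%) and from AKR1C2 at 87 (91%).

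AKR1B1 and AKR1B10 are easier to tell apart, with 76.1% identity between their aligned coding sequences of 951 bases each. The window in which they differ most, coding bases 382 to 411 in exon 4 (GRCh38, chr7:134449738-134449767 on the minus strand and chr7:134533034-134533063 on the plus strand), has 19 differing positions, in capitals.
AKR1B1: TCGggCaatgTGGtTCCCAgTGaCAcCaAC
AKR1B10: AAAggTaatgCCAtCGGTGgAAaAGcAaCG
AKR7A2 is the most distant member, with 45.2% to 47.5% coding identity to the other 6.

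Shared sequence was measured by asking which stretches of each gene's principal annotated transcript also occur in a transcript of another gene. At 75 bases, 41.3% of the stretches of AKR1C2 and 22.2% of those of AKR1C1 were shared, nearly all between these genes. The shares were 7.91% for AKR1C3, 7.45% for AKR1B10 (with AKR1B15 and the pseudogene AKR1B10P1) and 4.27% for AKR7A2 (with AKR7L and AKR7A3). AKR1A1 and AKR1B1 had none. At 50 bases AKR1C2 reached 52.2%, and at 100 bases it still had 32.9%. The read length is not stated, so how many reads of AKR1C1 and AKR1C2 went uncounted is unknown, and their levels are uncertain.

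**Figure D1:**
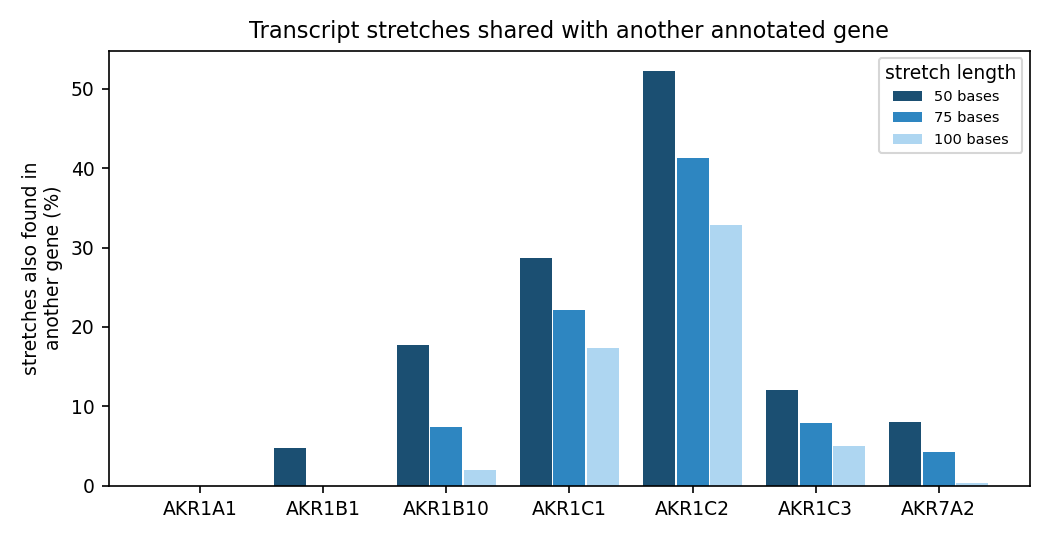
Share (%) of all stretches of 50, 75 or 100 bases in each member's principal transcript that also occur, on either strand, in a transcript of another annotated gene. AKR1C2 stands highest at each length (52.2%, 41.3% and 32.9%), and AKR1A1 is at 0 throughout.

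The family split after YES1 knockdown. AKR1B10, AKR1C1, AKR1C2 and AKR1C3 rose in shYES1, AKR1B1 and AKR1A1 fell, and AKR7A2 did not pass the test. Of the 14239 genes tested, 65.3% were called, 32.5% higher and 32.8% lower (edgeR quasi-likelihood test, adjusted p under 0.05), so a call alone sets no member apart. The rises of AKR1B10, AKR1C1 and AKR1C2 were more than 2-fold, a size that 2.5% of tested genes reached. No member fell 2-fold, as 6.22% of tested genes did. For 6 of the 7 members the groups did not overlap, as for 67.9% of tested genes.

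**Figure D2:**
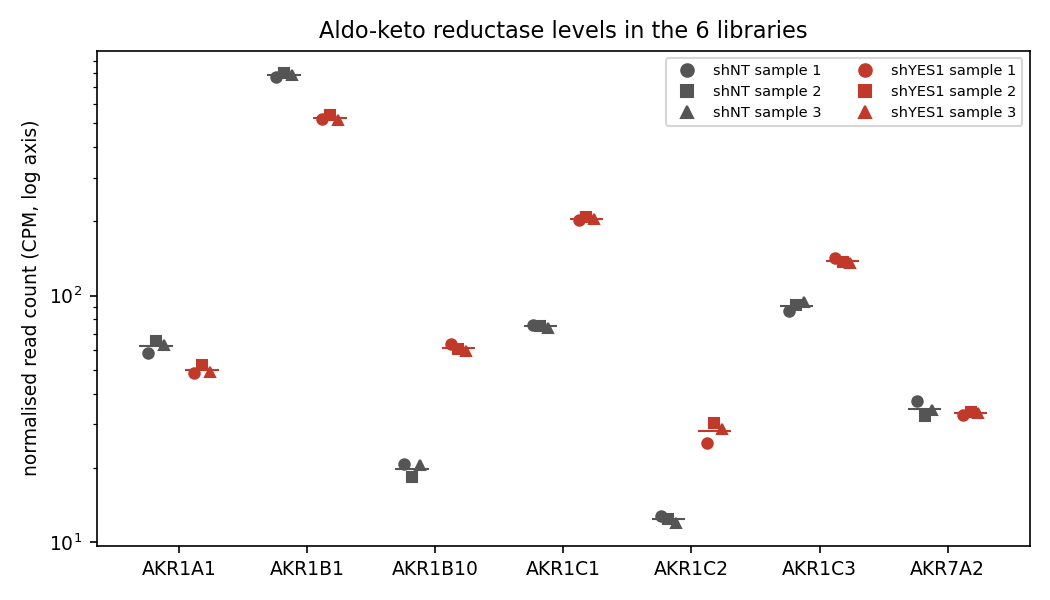
Normalised read count (CPM, log axis) of each member in each library, shNT in grey and shYES1 in red, with symbols for samples 1 to 3 and a line at the group mean. The groups are apart for every member but AKR7A2, whose shYES1 samples (32.6 to 33.5 CPM) lie within the shNT range of 32.5 to 37.3 CPM.

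AKR1B10 (ENSG00000198074.9, GRCh38 chromosome 7, 134527592 to 134541408, plus strand), the retinal-reducing enzyme, changed most. It had 20.7, 18.3 and 20.5 CPM in the shNT samples and 63.9, 60.5 and 59.3 CPM in the shYES1 samples. Each shYES1 library was well above each shNT library. The mean went from 19.8 ± 1.33 to 61.2 ± 2.36 CPM (SD, n = 3 per group), a 3.08-fold rise (log2 fold change 1.62, SE 0.0567, edgeR adjusted p = 1.27e-28). Only 242 to 324 reads per shNT library and 707 to 1161 per shYES1 library lay behind these values. Its fold change was above that of 99.5% of tested genes. In bulk RNA, a change in every cell and a change in the share of cells that express a gene cannot be told apart.

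AKR1B1 (ENSG00000085662.13, chromosome 7, 134442350 to 134459284, minus strand), aldose reductase, is the neighbour of AKR1B10 in the genome, with 68.3 kb between the genes. It moved the other way. Its levels were 771, 799 and 783 CPM in the shNT samples and 521, 540 and 518 CPM in the shYES1 samples, which puts each shYES1 library below each shNT library. The mean fell from 784.5 ± 14.0 to 526.5 ± 12 CPM, 1.49-fold lower (log2 fold change -0.58, SE 0.0248, edgeR adjusted p = 4.48e-25). For each read of AKR1B1 there were 0.0253 ± 0.0021 reads of AKR1B10 in shNT and 0.116 ± 0.00556 in shYES1.

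AKR1B15, a close copy of AKR1B10 that begins 7.73 kb beyond it on the same strand, had only 59 to 89 reads per library. Its mean was 4.70 ± 0.491 CPM in shNT and 4.46 ± 0.641 CPM in shYES1, with overlapping groups (log2 fold change -0.08, 95% interval -0.38 to 0.21, edgeR adjusted p = 0.64). The interval lies below the change of AKR1B10 (95% interval 1.51 to 1.74). Its sign turned with library-size scaling (0.01) and without shYES1 sample 1 (0.02).

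AKR1C1, AKR1C2 and AKR1C3, of the AKR1C cluster on chromosome 10, all rose. AKR1C1 (ENSG00000187134.13, 4963253 to 4983283, plus strand), which inactivates progesterone, had 76.3, 74.9 and 73.9 CPM in the shNT samples and 202.6, 208.8 and 205 CPM in the shYES1 samples. Replicates lay close together and the groups far apart. The mean rose from 75.02 ± 1.20 to 205.5 ± 3.13 CPM, 2.74-fold (log2 fold change 1.45, SE 0.0333, edgeR adjusted p = 5.59e-36).

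AKR1C2 (ENSG00000151632.17, 4987400 to 5018031, minus strand), which inactivates dihydrotestosterone, lies 4.12 kb from AKR1C1 on the opposite strand. It had 12.7, 12.4 and 11.9 CPM in shNT and 25.3, 30.3 and 28.7 CPM in shYES1. The lowest shYES1 library stood clear of the highest shNT library. The mean rose from 12.3 ± 0.392 to 28.1 ± 2.57 CPM, 2.27-fold (log2 fold change 1.18, SE 0.0767, edgeR adjusted p = 1.97e-18). Its counts ran from 157 to 562 reads in a library.

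AKR1C3 (ENSG00000196139.13, 5035354 to 5107686, plus strand), which makes testosterone and prostaglandin F, changed less. It had 86.6, 91.3 and 94.0 CPM in shNT and 141.7, 137 and 135.1 CPM in shYES1, again with no overlap. The mean rose from 90.6 ± 3.73 to 137.9 ± 3.38 CPM, 1.52-fold (log2 fold change 0.60, SE 0.0353, edgeR adjusted p = 4.93e-20). Its change was above that of 91.5% of tested genes, against 99.2% for AKR1C1 and 98.5% for AKR1C2.

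Because reads can be misassigned within the cluster, the reads of the 3 AKR1C genes were also summed and tested as 1 gene. The sum was 175.5, 178.7 and 179.8 CPM in shNT and 369.5, 376.2 and 368.8 CPM in shYES1. It rose 2.085-fold (log2 fold change 1.06, SE 0.0274, edgeR adjusted p = 1.02e-33), a value that does not depend on how counted reads were shared out among the 3. The flanking family genes were low. AKR1E2, 115.2 kb before AKR1C1, had 4.21 ± 0.482 CPM in shNT and 4.65 ± 0.217 CPM in shYES1, with overlapping groups (log2 fold change 0.14, edgeR adjusted p = 0.40). AKR1C8 and AKR1C4, beyond AKR1C3, had at most 11 reads in a library and were not tested.

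The ratios among the AKR1C genes were read within each library. For each read of AKR1C3 there were 0.881, 0.820 and 0.786 reads of AKR1C1 in the shNT samples, and 1.43, 1.52 and 1.52 in the shYES1 samples. These are ratios of reads, not of levels, since the genes differ in length. For each read of AKR1C2 there were 6.01, 6.04 and 6.20 reads of AKR1C1 in shNT and 8.02, 6.89 and 7.14 in shYES1. The groups did not overlap in either ratio. The ratio of AKR1C2 to AKR1C3 was 0.136 ± 0.00985 in shNT and 0.204 ± 0.0226 in shYES1. For these 3 ratios and that of AKR1B10 to AKR1B1, a two-sided exact permutation test over the 6 libraries gave p = 0.1, the smallest it can give with 3 against 3, and p = 0.1 after adjustment over the 4 ratios.

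AKR1A1 (ENSG00000117448.13, chromosome 1, 45550543 to 45570049, plus strand), the broad aldehyde reductase, fell modestly. It had 58.5, 65.4 and 62.9 CPM in shNT and 48.5, 52.1 and 48.8 CPM in shYES1, and the lowest shNT library was above the highest shYES1 library. The mean fell from 62.3 ± 3.49 to 49.8 ± 2.01 CPM, 1.26-fold lower (log2 fold change -0.33, SE 0.0466, edgeR adjusted p = 2.47e-08).

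AKR7A2 (ENSG00000053371.12, chromosome 1, 19303965 to 19312146, minus strand), the succinic semialdehyde reductase, was the member without a call. It had 37.3, 32.5 and 34.4 CPM in shNT and 32.6, 33.5 and 33.5 CPM in shYES1, so the groups overlapped. The mean was 34.7 ± 2.40 CPM in shNT and 33.2 ± 0.502 CPM in shYES1 (log2 fold change -0.06, 95% interval -0.18 to 0.05, edgeR adjusted p = 0.34). Changes of the size seen in AKR1A1 or larger lie outside that interval. Its sign turned with library-size scaling (0.03), where it was again not called.

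**Figure D3:**
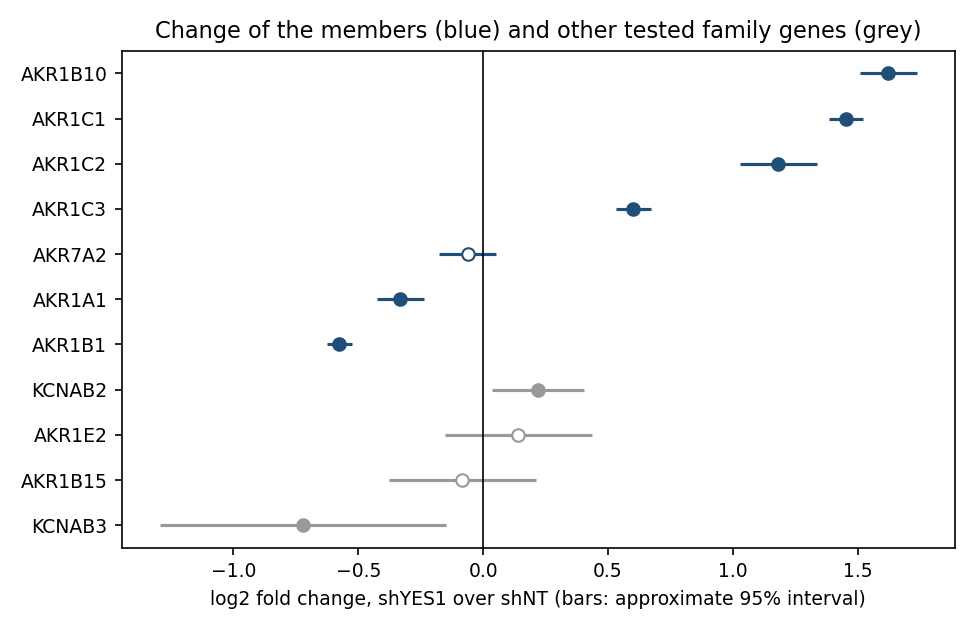
Log2 fold change of shYES1 over shNT (horizontal axis) with approximate 95% intervals (bars) for the 7 members in blue and the 4 other tested family genes in grey. Filled points passed an edgeR adjusted p of 0.05. The intervals of AKR1B10, AKR1C1 and AKR1C2 lie above 1, a 2-fold rise, and those of AKR1A1 and AKR1B1 below 0.

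To compare levels between genes, CPM were divided by length. The principal annotated transcripts of AKR1C1 (6705 bases) and AKR1C2 (3756 bases) are far longer than their coding sequences, so levels are given per kilobase of transcript and, beside it, per kilobase of coding sequence. On both scales AKR1B1 was highest and AKR1C2 lowest in shNT. AKR1B1 had 557 ± 9.95 CPM per kb of transcript (825 ± 14.7 per coding kb) and AKR1C2 had 3.28 ± 0.104 (12.7 ± 0.402 per coding kb). AKR1C3 was next below AKR1B1 on both scales, at 50.2 ± 2.06 (93.3 ± 3.84 per coding kb). AKR1A1 followed at 34.3 ± 1.92 per kb of transcript, then AKR7A2 at 25.5 ± 1.77, AKR1B10 at 12.5 ± 0.835 and AKR1C1 at 11.2 ± 0.179. Per coding kb, AKR1C1 stood instead at 77.2 ± 1.23, between AKR1C3 and AKR1A1 (63.7 ± 3.56). The place of AKR1C1 depends on the length used.

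In shYES1 the order below AKR1B1 changed. Per kb of transcript it was AKR1B1 (374 ± 8.56), AKR1C3 (76.3 ± 1.88), AKR1B10 (38.5 ± 1.49), AKR1C1 (30.6 ± 0.466), AKR1A1 (27.4 ± 1.11), AKR7A2 (24.4 ± 0.368) and AKR1C2 (7.48 ± 0.684). AKR1B10 passed both AKR1A1 and AKR7A2, on either scale. Per coding kb AKR1C1 (211 ± 3.22) stood above AKR1C3 (142 ± 3.50), and AKR7A2 (30.8 ± 0.464) and AKR1C2 (28.9 ± 2.64) overlapped across libraries. No pair of neighbours was tested.

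Summed over the 7 members, the level per coding kb was 1108, 1140 and 1126 CPM in shNT and 1075, 1103 and 1068 CPM in shYES1, where the groups do not overlap but lie close. Per kb of transcript the sum was 694 ± 10.5 in shNT and 578 ± 10.4 in shYES1. AKR1B1 made up 73.3% ± 0.310 of the sum per coding kb in shNT and 51.2% ± 0.297 in shYES1, or 80.3% ± 0.322 and 64.6% ± 0.407 per kb of transcript. AKR1C1 went from 6.87% ± 0.190 to 19.5% ± 0.190 per coding kb, and from 1.61% ± 0.0457 to 5.30% ± 0.0629 per kb of transcript. AKR1B10 went from 1.86% ± 0.147 to 5.95% ± 0.259 per coding kb.

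**Figure D4:**
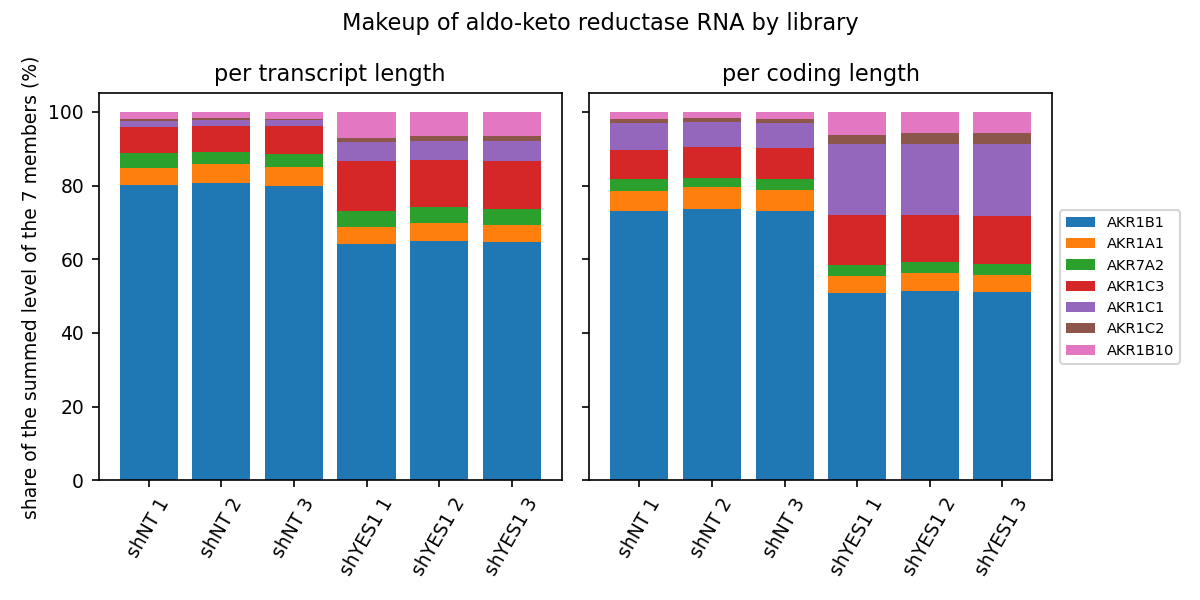
Share (%) of each member in the summed level of the 7 members, one bar per library, with levels per kilobase of transcript on the left and per kilobase of coding sequence on the right. In all 3 shYES1 libraries AKR1B1 (blue) takes a smaller share and AKR1B10, AKR1C1, AKR1C2 and AKR1C3 larger ones than in the shNT libraries, on both scales.

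The rest of the family was low. KCNAB2 was the highest of them, near the 12.3 CPM of the member AKR1C2 in shNT. Of 10 other aldo-keto reductase genes in the files, 6 had too few reads to test: AKR1C4, AKR1C8, AKR1D1, AKR7A3, AKR7L and KCNAB1. KCNAB2 and KCNAB3 encode beta subunits of voltage-gated potassium channels that share the aldo-keto reductase fold. KCNAB2 went from 10.4 ± 0.460 to 12.3 ± 0.871 CPM (log2 fold change 0.22, edgeR adjusted p = 0.0341). KCNAB3, with 6 to 28 reads per library, went from 1.59 ± 0.396 to 0.917 ± 0.364 CPM (-0.72, adjusted p = 0.0236). Neither call held throughout: with DESeq2 the adjusted p was 0.127 for KCNAB2 and 0.102 for KCNAB3. Leaving out 1 library gave 0.11 for KCNAB2 (without shNT sample 2), 0.0764 for KCNAB2 and 0.106 for KCNAB3 (without shNT sample 3), 0.122 and 0.127 (without shYES1 sample 2), and 0.087 for KCNAB3 (without shNT sample 1). Without a low-count filter KCNAB2 was at 0.0522.

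Among the 10607 genes compared over the 6 libraries, those whose centred log2 CPM profile lay closest to AKR1C1 were ITGA5, an integrin subunit gene (root mean square difference 0.0259), RHOB, a small GTPase gene (0.0382), and ADGRG1 (0.0405). For AKR1B10 they were CCDC74A (0.0426), CCDC159 (0.0544) and ST6GALNAC4 (0.0606), and for AKR1C2 AKNA (0.0663), PROCR (0.0668) and SYNPO (0.0714). Among the members themselves the most alike pair was AKR1B10 and AKR1C1 (0.109), which lie on different chromosomes, followed by AKR1A1 and AKR1B1 (0.132) and by AKR1C1 and AKR1C2 (0.154). The least alike were the neighbours AKR1B1 and AKR1B10 (1.10). With 2 groups that differ, a small distance says mainly that the changes are alike in size.

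NRF2 binds the antioxidant response element, whose core is TGACNNNGC. This core was searched on both strands of the RefSeq promoters (GRCh38.p14, 250 bases before to 50 after each start), which hold 6 of the 7 members, all but AKR1B10. The core occurs in 13.3% of the 35116 promoters in the table. Among the members it was found only in AKR7A2, which did not pass the test, at 3 places. The cores do not overlap each other, but the flanks of sites a and b do. They are shown 5′ to 3′ on the strand of the gene with the core or its complement in capitals, at chr1:19312295-19312323, chr1:19312284-19312312 and chr1:19312223-19312251 (minus strand).
AKR7A2 site a: gtcaaggcccGCCGGGTCAgctgaccgcg
AKR7A2 site b: ccgggtcagcTGACCGCGCgccaccgccc
AKR7A2 site c: cgcgctgggcTGACCGGGCctggaggcgc
The related motif of AP-1 factors, TGANTCA, was in no member promoter and in 7.71% of all. A match is only a match of letters, and elements farther from the start were not searched.

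The counts for the gene lists that follow stand against 32.5% higher and 32.8% lower among all tested genes, so calls in both directions are no feature of a list. Of 11 listed NRF2 regulators 5 rose and 3 fell (median log2 fold change 0.07, against -0.00469 for all tested genes). The small MAF partner gene MAFK went from 40.5 ± 1.58 to 70.0 ± 2.74 CPM (0.79) and CUL3, the scaffold of the ligase that degrades NRF2, from 153 ± 3.08 to 243 ± 5.36 CPM (0.66). BTRC, of another ligase that targets NRF2, fell (-0.60), as did MAFF (-0.47). NFE2L2, which encodes NRF2, and KEAP1, its inhibitor, rose slightly, by 0.13 (207.8 ± 5.21 to 227.6 ± 6.45 CPM) and 0.19 (63.8 ± 5.03 to 73.0 ± 1.56 CPM). These 2 genes and NQO1, GCLC, GCLM and SORD below were picked for their role with their values known.

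Of 26 tested NRF2 targets outside the family, 12 rose and 9 fell (median 0.05), beside the 32.5% and 32.8% of all tested genes. The epoxide hydrolase gene EPHX1 rose from 94.5 ± 3.04 to 166.8 ± 6.54 CPM (0.82), the heme oxygenase gene HMOX1 from 35.6 ± 1.25 to 62.2 ± 1.26 CPM (0.81) and GSTA4 (0.69). NQO1, the quinone reductase, rose from 369 ± 2.01 to 503 ± 13.6 CPM (0.45). The thioredoxin reductase gene TXNRD1 fell from 351 ± 7.53 to 154 ± 2.26 CPM (-1.19), the ferritin heavy chain gene FTH1 from 12130 ± 251 to 5584 ± 109 CPM (-1.12) and the exporter gene ABCC1 (-0.67). The subunits of glutamate-cysteine ligase parted, GCLC rising (0.35) and GCLM falling (-0.26). None of the listed targets rose as much as AKR1C2, but EPHX1, HMOX1 and GSTA4, among others, rose more than AKR1C3 (0.60).

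NADPH, the cofactor of these enzymes, comes from several sources. Of 15 tested genes that supply it, 7 rose and 5 fell (median 0.04), beside the same 32.5% and 32.8%. TKT (0.66), which encodes transketolase, and IDH1 (0.59), the cytosolic isocitrate dehydrogenase gene, rose. NADK, which makes NADP from NAD, fell from 55.9 ± 1.47 to 28.8 ± 1.04 CPM (-0.95), and ME1 (-0.74) and IDH2 (-0.59) fell.

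**Figure D5:**
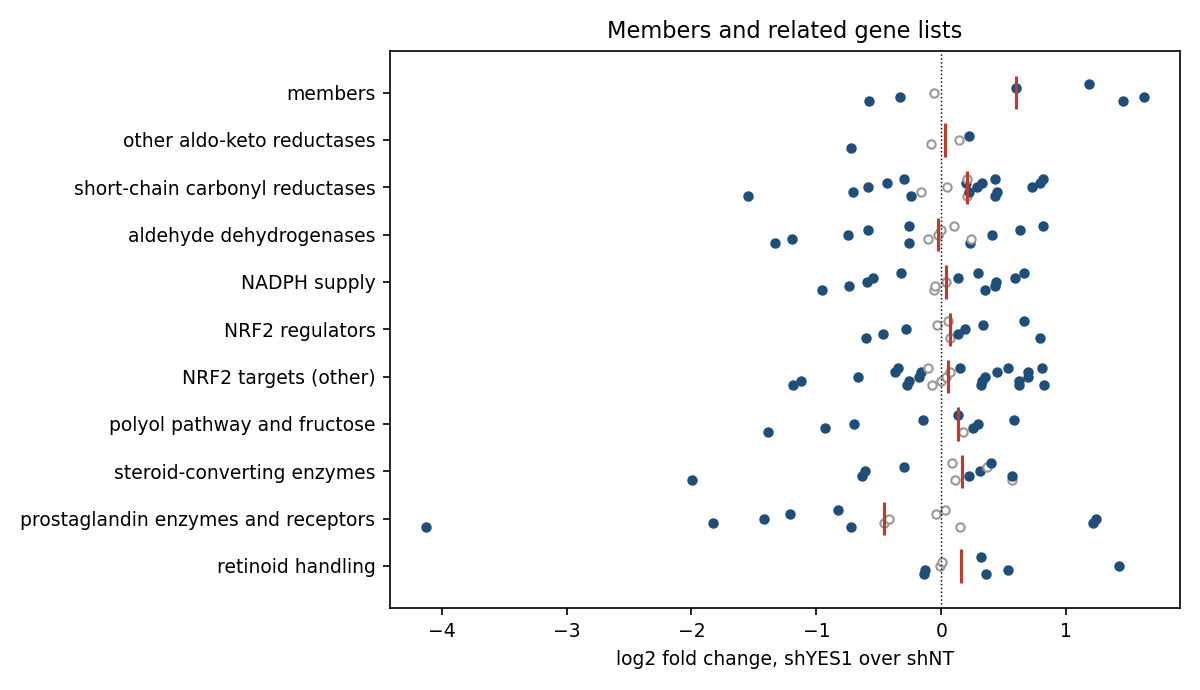
Log2 fold change of shYES1 over shNT for each tested gene of the members and of 10 related lists (one point per gene, filled where edgeR's adjusted p was under 0.05, spread vertically for legibility), with the median of each list as a red line and that of all tested genes as a dotted line. The members' median of 0.60 reflects 4 rises of 7, and the prostaglandin list has the lowest median, -0.46.

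Other enzymes of carbonyl metabolism were also called in both directions. Of 20 tested genes in a list of short-chain and other carbonyl reductases, 10 rose and 6 fell (median 0.21). Its CRYZ (0.43), PTGR1 (0.43) and TP53I3 (0.22), which rose, and PTGR2 (-0.44), which fell, are not short-chain enzymes. RDH11 rose from 73.2 ± 3.86 to 126.5 ± 2.14 CPM (0.79) and RDH10 (0.73), both retinol dehydrogenases, and DHRS11 (0.82) rose, while DHRS3, which reduces retinal, fell from 9.40 ± 0.328 to 3.21 ± 0.043 CPM (-1.54). DHRS1 (-0.71) and SPR (-0.58), sepiapterin reductase, fell too. Of 15 tested aldehyde dehydrogenases, most of which oxidise aldehydes instead of reducing them, 4 rose and 6 fell (median -0.03). ALDH9A1 (0.82), ALDH3A2 (0.63), the fatty aldehyde dehydrogenase, and ALDH3B1 (0.41) rose, and ALDH18A1, of proline synthesis, fell from 152 ± 3.49 to 60.5 ± 0.732 CPM (-1.33), with ALDH1L2 (-0.75) and ALDH1A1 (-0.59), a retinal dehydrogenase, also lower. Only 2 of 8 alcohol dehydrogenase genes could be tested, and ADH5 fell (-0.18).

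In the pathways that supply or use the members' substrates, the polyol and fructose list gave 4 higher and 4 lower of 9. SORD, the dehydrogenase that acts after AKR1B1 on sorbitol, had 32.6 ± 1.43 CPM in shNT and 35.7 ± 1.77 in shYES1 with overlapping groups (0.13, edgeR adjusted p = 0.0394). Its adjusted p was 0.14 with DESeq2, 0.057 with unstranded counts, and 0.147, 0.0852, 0.0905 and 0.187 without shNT sample 1, shNT sample 3, shYES1 sample 2 and shYES1 sample 3. Of the hexokinases that compete for glucose, HK1 rose (0.59) and HK2 fell (-0.70). HK2 went from 138 ± 1.55 to 84.8 ± 1.01 CPM. The number of lower genes in this list was 2 without shNT sample 2, and of higher genes 2 without shYES1 sample 3.

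Steroid-converting enzymes outside the family gave 4 higher and 4 lower of 12 tested, and 14 of the 26 listed were too low to test. HSD17B10 (0.57), HSD17B12 (0.40) and HSD17B11 (0.31) rose, and SRD5A3 (-0.64), STS (-0.61), the steroid sulfatase, and HSD17B4 (-0.30) fell. With library-size scaling 8 genes of this list were higher.

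Prostaglandin genes, upstream and downstream of the prostaglandin F activity of AKR1C3, gave 6 lower and 2 higher of 13 (median -0.46). PTGS2, which encodes COX-2, fell from 78.8 ± 2.01 to 22.3 ± 0.852 CPM (-1.83), the prostaglandin F receptor gene PTGFR from 71.8 ± 2.34 to 26.8 ± 0.320 CPM (-1.42), and PLA2G4A, which frees arachidonic acid, from 28.4 ± 1.20 to 12.4 ± 1.41 CPM (-1.22). In shYES1, AKR1C3 was higher while these 3 genes were lower.

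Retinoid genes gave 4 higher and 2 lower of 8 tested. The retinoic acid receptor gene RARG (0.54), RETSAT (0.35) and RXRA (0.32) rose, and RARA (-0.14) and RXRB (-0.13) fell, though with library-size scaling the adjusted p was 0.357 for RARA and 0.505 for RXRB. In the list around succinic semialdehyde, the substrate of AKR7A2, 2 of 4 tested genes were called higher and none lower, and 1 was called higher without shNT sample 3, shYES1 sample 1 or shYES1 sample 2. ALDH5A1, the dehydrogenase that shares this substrate, was nearly absent, with no read in shNT.

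Of the genes called, 49.7% were higher with TMM scaling and 60.7% with library size only. The 4 members called higher and the 2 called lower were called in the same direction under all 14 alternatives run.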

How the data were processed

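Libraries were made with a KAPA stranded poly(A) kit, per the labels' protocols. The authors deposited raw read counts per gene, 1 file for each library, unstranded and by strand. The submitters' processing notes name CASAVA 1.8.2, Trimmomatic 0.35, STAR 2.5.1b and build GRCh38; the annotation release is not stated. Reverse-strand counts were used here, since they held 93.5% to 94% of the stranded gene reads. Entries that name no gene, with 19.8% to 20.3% of reads (multimapping 6.01% to 6.52%), were left out.

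Of 58219 identifiers 57437 matched a symbol. Coordinates, lengths and transcripts came from GENCODE release 29, which held 57881 of them; a principal transcript is the longest of the best APPRIS rank. Tests used edgeR 4.0.16 in R 4.3.3 (filterByExpr, minimum count 10 and total 15; TMM; robust quasi-likelihood; Benjamini-Hochberg adjustment over 14239 genes; threshold 0.05). A standard error is the log2 fold change divided by the square root of F, and 95% intervals follow from it, both approximate. Errors on means are SD, n = 3. The tests were first run on simulated counts in which few genes changed. That run does not check them under a change as broad as the one seen here.

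The members and lists were chosen with earlier results of these data known. Genes named by rule are the members, every other family gene, and per list the largest 3 rises and 3 falls by log2 fold change, provided they were called, averaged 5 CPM or more and did not overlap, or else the 2 most abundant. For members changed at least 2-fold, the 3 genes with the closest profile are named as well. One gene that the rule names is not reported here. Tried in place of these settings were RLE and library-size scaling, DESeq2 1.42.0, limma-voom 3.58.1, no count filter, 1 CPM in 3 libraries, unstranded counts, a block on sample number, and omission of each library.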

Additional observations from a re-analysis of the deposited data

Results flagged for a closer look

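Reads on the strand opposite to AKR1C1 numbered 111 in the shYES1 libraries together (30 to 48 per library) and 21 in the shNT libraries (2 to 12), or 1.12% and 0.673% of the reads on both strands of the gene. At AKR1C2, which lies on the other strand beside it, such reads numbered 24 in shYES1 (5 to 12 per library) and 7 in shNT (2 to 3). They made up 1.77% in shYES1 and 1.36% in shNT of the reads on both strands of AKR1C2. Reads assigned to AKR1B10P1, a processed pseudogene of AKR1B10 on chromosome 10, numbered 20 in shYES1 (5 to 8 per library) and 5 in shNT (1 to 2). These reads lie outside the comparisons above. They come from a screen of opposite-strand reads at the 7 members and of reads at the family pseudogenes. The screen kept only items for which every shYES1 library, after scaling, lay above every shNT library. That separation is therefore how they were picked, not a result. Among the pseudogenes that this screen left out, AKR1B1P2, AKR1B1P3 and AKR1B1P7 were lower in shYES1 without overlap. Their means went from 0.414 to 0.198, from 0.193 to 0.0691 and from 0.692 to 0.230 CPM, all on few reads. None of these rises and falls was tested.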

How the results depend on the processing

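The number of genes called was 9299, and 7953 to 9561 under the 14 alternatives. Log2 fold changes ranged from 1.57 to 1.72 for AKR1B10, 1.44 to 1.55 for AKR1C1, 1.14 to 1.28 for AKR1C2, 0.571 to 0.699 for AKR1C3, 1.05 to 1.16 for the summed AKR1C reads, -0.592 to -0.48 for AKR1B1 and -0.373 to -0.235 for AKR1A1, all called. With library-size scaling, which raised the median of all genes to 0.0921, signs turned for AKR7A2 (0.0349), AKR1B15 (0.0136) and the named gene GABARAP (0.0151), none of them called. With a library left out AKR1B15 ranged from -0.153 to 0.0231, the latter without shYES1 replicate 1. The AKR1C1 to AKR1C2 ratio differed by 0.27 on the log2 scale, and by 0.206 to 0.315 with a library left out. Of the 66 other named genes, 56 kept call and direction under each alternative that tested them. DESeq2 called 0 other family genes (1 higher and 1 lower in the edgeR fit). It called 3 genes of the carbonyl reductase list lower (6 in the edgeR fit). It called 2 polyol genes higher (4) and 1 gene of the succinic semialdehyde list higher (2). Without a low-count filter 0 other family genes were higher. At 1 CPM in 3 libraries 1 prostaglandin gene was higher (2). With library-size scaling 8 steroid genes were higher (4) and 0 retinoid genes lower (2). Same-numbered samples of the groups did not deviate together (correlations 0.0116 to 0.0252), so the numbers were not taken as pairs. With the replicate block 9297 genes, 4 members higher and 2 lower were called, and AKR7A2 was at -0.0657. Depth limits the low genes most: AKR1C2 rests on 157 reads in its thinnest library and KCNAB3 on 6.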
